A study of Homo sapiens with 12 samples.

Results

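Genes that differed in the same direction between ASAP2 knockout and wild-type libraries of 2 human pancreatic cancer lines are described here. ASAP2 encodes a GTPase-activating protein for Arf proteins, the small GTPases that recruit coats to membranes during vesicle traffic, and it is also found at focal adhesions, where cells grip their substrate. The average knockout effect was taken as the mean of 2 contrasts, knockout minus wild type in Panc1 and knockout minus wild type in MiaPaCa2, on the scale of log2(FPKM + 1). FPKM counts sequenced fragments scaled to the length of the transcript and to the size of the library, so that levels of genes and libraries can be set side by side. A gene was kept as shared when its 3 knockout values all lay above, or all below, its 3 wild-type values, with the same direction in each line. Of 11163 genes that averaged 1 FPKM or more in each line, 1869 (16.7%) met this rule, 740 higher (6.63%) and 1129 lower (10.1%) in knockout cells. Another 1826 genes (16.4%) were separated in each line but in opposite directions.

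RNA of 4 groups was sequenced, with 3 libraries in each: wild-type Panc1, ASAP2 knockout Panc1, wild-type MiaPaCa2 and ASAP2 knockout MiaPaCa2. Both are established lines from human pancreatic ductal adenocarcinoma. The labels name no treatment, time point or further allele. They also do not say how the knockout was made, how many clones each line stands for, or whether the wild-type cells went through the same editing steps. Whether a group's 3 libraries are separate cultures is not said, so a p-value reads no more than the spread among them, which may be technical. A change in both lines is therefore a comparison of 2 knockout populations, each of which may be a single clone, with their wild-type lines. Each library listed 17958 to 19105 genes above 0, and its FPKM summed to 360765 to 392610. The depth is unknown, as counts were not part of the files. Across the tested genes, libraries of a group correlated at r = 0.992 to 0.997, and wild-type with knockout libraries of the same line at 0.966 to 0.988.

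The epithelial keratins KRT8 (368 to 656 FPKM) and KRT18 (302 to 503 FPKM) were abundant in every library, while the epithelial adhesion genes EPCAM (0 to 3.97 FPKM) and CDH1 (0 to 0.419 FPKM) were at or near 0. Of 16 immune markers, 14 stayed under 1 FPKM in every library, and the exceptions were CD68 and LYZ. Their summed level was 172 to 179 FPKM in wild-type and 162 to 167 FPKM in knockout Panc1, and 51.9 to 64.9 against 131 to 156 FPKM in MiaPaCa2, with PTPRC at no more than 0.009 and CD3D at 0. Of 10 endothelial markers all but ESAM, and all 12 acinar and islet markers, were under 1 FPKM throughout. The summed level of 12 fibroblast markers was 107 to 111 FPKM in wild-type and 302 to 389 FPKM in knockout Panc1, and 113 to 115 against 148 to 154 FPKM in MiaPaCa2. COL1A1 (0 to 367 FPKM) and COL1A2 (0.017 to 154 FPKM), which cancer cells can also make, reached the highest levels of the list, and DCN, FAP and PDPN were at 0 in every library. The part of other cell types in the results below was not tested.

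ASAP2 itself was not among the shared genes. In Panc1 it measured 38.6, 37.5 and 34.6 FPKM in wild-type and 14.2, 14.5 and 12.7 FPKM in knockout libraries. In MiaPaCa2 it measured 13.2, 13.6 and 13.8 FPKM in wild-type and 12.01, 13.8 and 11.3 FPKM in knockout libraries. The Panc1 groups were far apart and the MiaPaCa2 groups overlapped, with a change of -1.36 in the first line and -0.13 in the second (difference between lines -1.23, adjusted p = 1.0e-06 by limma). Transcript level can stay high when an edit only breaks the reading frame, so this value does not check the MiaPaCa2 label. ASAP2 lies at chr2:9346894-9545812 on the plus strand in GRCh37 (hg19).

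By the test of the average over all genes, 6355 of 11163 genes (56.9%) changed at an adjusted p under 0.05, 2178 higher (19.5%) and 4177 lower (37.4%). All 1869 shared genes were among them. The test and the separation read the same libraries, so this is no further evidence. The calls also held 625 genes that moved in opposite directions and 3861 that were not separated in both lines, so that a called average is not by itself a change in both lines. The median average change of the shared genes was 0.30 for those higher and -0.31 for those lower, against -0.06 over all genes. Large changes were few: 22 shared genes were at least 2-fold higher on average and 5 at least 2-fold lower, and 5 higher and 1 lower reached 2-fold in each line.

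Of the genes higher in Panc1 knockout cells (2699, or 24.2% of those tested), 27.4% were also higher in MiaPaCa2 and 25.3% were lower. Of those lower in Panc1 (5383, or 48.2%), 21% were lower and 21.2% higher in MiaPaCa2. Read from the other line, 28.2% of the 2620 genes higher in MiaPaCa2 (23.5%) and 45.7% of the 2471 lower there (22.1%) moved the same way in Panc1. Over all tested genes the changes in the lines, which have no libraries in common, were related at Pearson r = 0.067 and Spearman rho = 0.049 (n = 11163 genes, which are not independent replicates). Across genes the changes in the lines were thus nearly unrelated, and the shared genes are a minority of those tested. The same-way shares were near those of all tested genes: 27.4% beside 23.5% and 21% beside 22.1% in MiaPaCa2, and 28.2% beside 24.2% and 45.7% beside 48.2% in Panc1. The number of shared genes is therefore near what lines with unrelated changes would give, and it is not by itself a sign of a common effect.

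**Figure D1:**
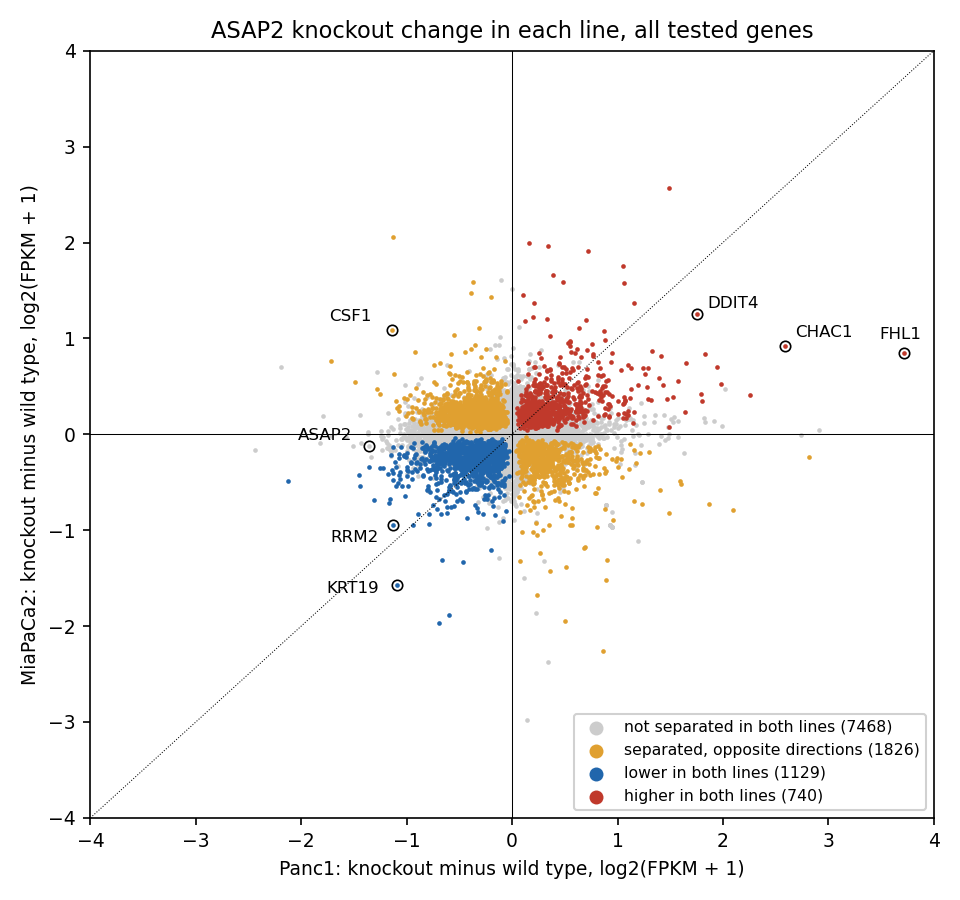
Knockout minus wild-type difference on log2(FPKM + 1) in Panc1 (x axis) and MiaPaCa2 (y axis), 1 point per tested gene, with the line of equal change dotted. Red and blue points are the 740 genes higher and 1129 genes lower in both lines, and orange points the 1826 separated in opposite directions; ASAP2 and CSF1 are marked as genes that are not shared.

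Shared genes often differed in size between the lines. The changes were within 2-fold of each other for 475 of the 740 higher and 632 of the 1129 lower genes. The Panc1 change was more than 2 times the MiaPaCa2 change for 184 and 382 genes, and the reverse held for 81 and 115. A test of the difference between the lines passed for 247 of the shared higher (33.4%) and 442 of the shared lower genes (39.1%), beside 58.4% of all genes. The rule keeps genes that moved the same way, while all genes include those separated in opposite directions. The lower shares therefore follow from the rule and do not show that shared genes change more evenly. In Panc1 the median over all genes was itself -0.12, and it was -0.19, -0.00, -0.02 and -0.01 after rescaling to equal sums, median-ratio scaling, quantile normalization and a correction for GC content and length. The share of lower genes among the shared genes, 60.4% as deposited, was 67.7%, 43.5%, 44.7% and 48.5% in the same order. Among the genes called by the average it was 65.7%, against 73.6%, 49.1%, 51.4% and 51.7%. The medians of gene groups below are to be read beside those of all genes, -0.06 on average, -0.12 in Panc1 and 0.01 in MiaPaCa2. Their counts are to be read beside the shares of all genes: 19.5% rose and 37.4% fell on average, and 6.63% were higher and 10.1% lower in both lines.

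The clearest group among the shared higher genes was the ATF4 stress response. ATF4 is the transcription factor that cells translate when amino acids run short or misfolded protein builds up, and it switches on amino acid synthesis and transport, transfer RNA charging and, when stress lasts, growth arrest. Of 44 list genes tested, 38 rose and 2 fell on average, and 18 (40.9%) were higher in both lines while none was lower in both. The median average change was 0.53 (0.86 in Panc1 and 0.17 in MiaPaCa2), against -0.06 over all genes (-0.12 and 0.01). The genes that fell were ATF5, which measured 65.7 to 66.1 FPKM in wild-type and 46.8 to 49.6 FPKM in knockout Panc1 with overlapping values in MiaPaCa2, and WARS, which moved in opposite directions.

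DDIT4, which restrains the growth kinase complex mTORC1, had the largest increase that both lines reached among genes with 5 FPKM or more in the higher group of both (chr10:74033678-74035794, plus strand, GRCh37). It measured 18.3, 18.7 and 17.7 FPKM in wild-type and 72.6, 63.7 and 55.7 FPKM in knockout Panc1. MiaPaCa2 gave 32.9, 23.2 and 21.6 FPKM in wild-type and 57.01, 76.97 and 53.6 FPKM in knockout libraries. The knockout groups of both lines thus reached a similar level from different starting points, a mean of 64.03 ± 8.48 FPKM (SD, n = 3) in Panc1 and 62.5 ± 12.6 FPKM in MiaPaCa2. The average change was 1.50 (SE 0.11, adjusted p = 3.0e-07 by limma), or 2.82-fold.

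CHAC1, an enzyme that degrades glutathione, is a textbook readout of ATF4 signalling (chr15:41245160-41248710, plus strand, GRCh37). In Panc1 it measured 3.86, 3.06 and 3.36 FPKM in wild-type and 27.4, 26.3 and 23.3 FPKM in knockout libraries. The values in MiaPaCa2 were 7.06, 5.86 and 5.85 FPKM in wild-type and 12.9, 12.2 and 13.1 FPKM in knockout libraries. No value of one genotype came near the other in either line, and the Panc1 change of 2.59 exceeded the MiaPaCa2 change of 0.92 (difference 1.67, adjusted p = 3.6e-07 by limma).

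Regulators of the same response moved with these genes. The pseudokinase TRIB3, which feeds back on ATF4, rose from between 12.6 and 14.01 to between 40.8 and 55.5 FPKM in knockout Panc1, and from between 12.8 and 14.6 to between 22.4 and 32.3 FPKM in MiaPaCa2. The stress transcription factor DDIT3, known as CHOP, rose from between 18.5 and 20.7 to between 27.9 and 39.6 FPKM in Panc1 and from between 10.8 and 12.3 to between 18.7 and 22.8 FPKM in MiaPaCa2. Its change was alike in the lines, 0.76 and 0.82 with a difference of -0.06 (adjusted p = 0.766 by limma), although that p does not show equality. Here and below, changes given in pairs are those in Panc1 and then MiaPaCa2. CEBPB, a transcription factor of the family that pairs with ATF4, rose by 1.33 and 0.87, and SESN2, a leucine sensor that restrains mTORC1, by 1.94 and 0.70. CASTOR1, the arginine sensor of mTORC1, was not on the list and changed by 0.94 and 0.76, although 1 wild-type MiaPaCa2 library at 10.1 FPKM nearly touched the lowest knockout library.

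ATF4 itself, named after its values were seen, as were the next 3 genes, measured 109.5 to 111 FPKM in wild-type and 217 to 265 FPKM in knockout Panc1. MiaPaCa2 libraries held 134 to 163 FPKM in wild-type and 192 to 215 FPKM in knockout libraries. Asparagine synthetase ASNS rose by 1.53 and 0.38, and alanyl-tRNA synthetase AARS by 1.05 and 0.17. The stress-induced regulator NUPR1 changed by 0.95 and 0.85, but its wild-type MiaPaCa2 values of 3.46, 1.66 and 1.38 FPKM reached up to the lowest knockout value of 3.48 FPKM.

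The MiaPaCa2 libraries of a group differed from each other along this same set of genes. Knockout library 2 was the highest of its group for 16 of the 18 shared ATF4 genes, and wild-type library 1 the highest of its group for 14. Without that wild-type library, 28 of the list genes were higher in both lines instead of 18. Replicate libraries of MiaPaCa2 therefore differed along the same genes that separate its genotypes, and the cause of this spread was not tested. In Panc1, knockout library 1 was the highest for 16 of the 18. MiaPaCa2 knockout library 2 also stood out in other lists described below. It was the lowest of its group for 12 of 15 shared splicing regulators, 7 of 9 proteasome and 8 of 10 mitochondrial ribosomal genes. It was the highest for 7 of 9 shared higher genes of the p53 list but for 1 of 5 YAP and TAZ targets. MiaPaCa2 wild-type library 1 was the highest for 7 of 7 shared NF-kB list genes and 0 of 5 YAP and TAZ targets.

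Promoters of ATF4 targets are known to carry a composite site for CEBP and ATF proteins. The word TGATGCAA or its reverse complement TTGCATCA was searched in promoters from RefSeq on GRCh38.p14, 250 bases before to 50 bases after the annotated start. Genes with more than a single promoter entry were left out, here and in the promoter counts below. It was found in 4 of the 20 list genes with a promoter kept, 4 of 376 shared higher genes (1.06%), 1 of 690 shared lower genes (0.145%) and 19 of 6307 tested genes (0.301%), and in 219 of all 22114 promoters kept (0.990%). A promoter was kept for 376 of the 740 shared higher and 690 of the 1129 shared lower genes. These are too few for a statement on either set as a whole, so the counts describe genes with a single promoter entry alone. A match is a description of letters and not evidence of binding.

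Genes that hold the cell cycle were split. CDKN1A encodes p21, an inhibitor of cyclin-dependent kinases, and lies at chr6:36644237-36655114 on the plus strand (GRCh37). It measured 22.02, 23.5 and 24.3 FPKM in wild-type and 60.4, 63.4 and 66.1 FPKM in knockout Panc1. In MiaPaCa2 it measured 4.61, 4.82 and 4.85 FPKM in wild-type and 8.91, 11.2 and 7.64 FPKM in knockout libraries. The level differed greatly between the lines, and both knockouts were higher than their own wild type, by 1.41 and 0.82. The antiproliferative factor BTG1 rose from between 13.2 and 13.96 to between 20.7 and 23.8 FPKM in Panc1 and from between 10.8 and 12.8 to between 25.8 and 29.9 FPKM in MiaPaCa2. The stress gene GADD45A rose by 0.53 and 0.95, and the AKT inhibitor PHLDA3 by 0.39 and 1.66. In contrast the INK4 inhibitor CDKN2C fell from between 52.3 and 57.5 to between 31.3 and 35.6 FPKM in Panc1 and from between 18.3 and 21.4 to between 9.84 and 12.5 FPKM in MiaPaCa2. Of 28 tested genes on the list of p53 targets and CDK inhibitors, 11 rose (39.3%) and 10 fell (35.7%), beside 19.5% and 37.4% of all genes. In both lines 9 (32.1%) were higher and 4 (14.3%) lower, beside 6.63% and 10.1%. The median of 0.02 turned to -0.01 after rescaling to equal sums. The genes lower in both were CDKN2C, CDKN2D, BAX and TP53I3, the last 3 named after their values were seen. After median-ratio scaling 5 genes of this list fell, after quantile normalization 6, with the correction for GC content and length 7, and after rescaling to equal sums 11.

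**Figure D2:**
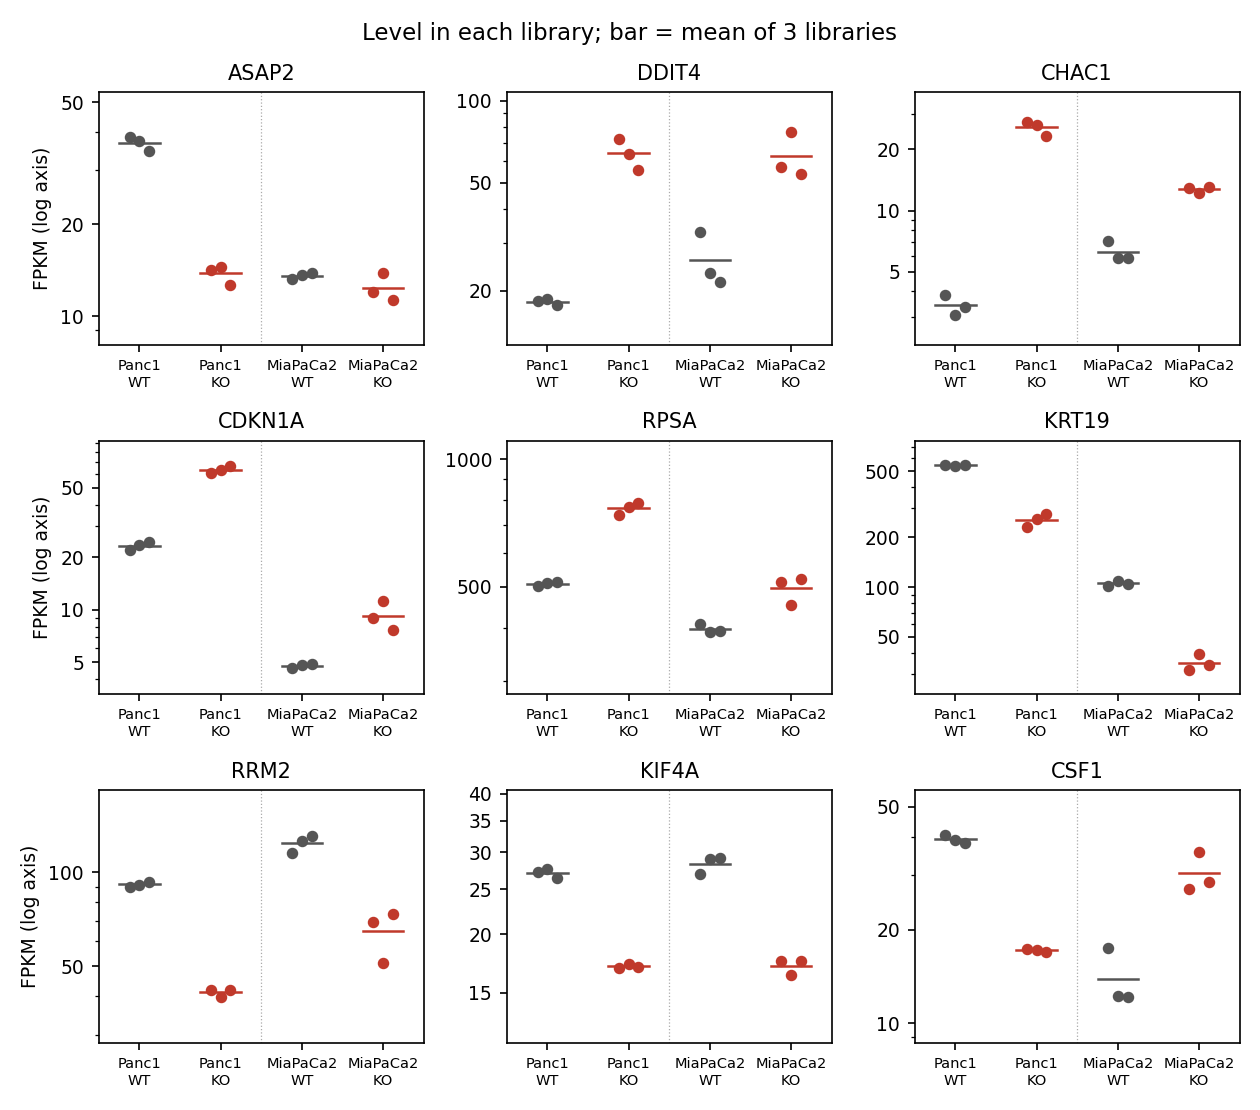
Level in FPKM (log axis) of 9 genes in the 3 libraries of each group, 1 point per library and a bar at the mean; grey is wild type (WT) and red is knockout (KO). DDIT4, CHAC1, CDKN1A and RPSA lie higher and KRT19, RRM2 and KIF4A lower in both knockouts, ASAP2 is separated only in Panc1, and CSF1 moves in opposite directions.

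Cytosolic ribosomal proteins, the protein parts of the ribosome, formed the group with the most called members. Of 78 genes, 71 rose and 2 fell on average, and 31 (39.7%) were higher and 1 was lower in both lines. The median was 0.24 (0.33 in Panc1 and 0.16 in MiaPaCa2), against -0.06 over all genes. RPSA, a protein of the small subunit, measured 502, 509 and 512 FPKM in wild-type and 738, 772 and 789 FPKM in knockout Panc1. MiaPaCa2 gave 409, 391 and 393 FPKM in wild-type and 512, 453 and 522 FPKM in knockout libraries. RPL9 rose by 0.64 and 0.29 and the stalk protein RPLP1 by 0.52 and 0.27, each with the larger change in Panc1. Many ribosomal protein genes have near-identical processed copies in the genome, and how reads shared with these were counted is not stated, so the value of any single one is uncertain.

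The direction of this group held under each scaling, but its size did not: after quantile normalization 53 rose and 6 fell. The number higher in both lines was 22 after quantile normalization and 50 after the correction for GC content and length. This number also depended on the libraries: MiaPaCa2 knockout library 2 was the highest of its group for none of the 31 shared genes, and without it 58 were higher in both lines. On the other side of the separation, MiaPaCa2 wild-type library 1 was the highest of its group for 28 of the 31. The genes that fell were RPS7 and RPS27A, both on chromosome 2 and named after their values were seen. RPS7 measured 359.7 to 386 FPKM in wild-type and 233 to 239 FPKM in knockout Panc1, and 880.5 to 959 against 699 to 829 FPKM in MiaPaCa2. RPS27A was higher in Panc1 and lower in MiaPaCa2.

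Other parts of the translation machinery had other counts. Elongation factor EEF1A1 rose from between 1572 and 1603 to between 2137 and 2173 FPKM in Panc1 and from between 1739.6 and 1960.0 to between 2179.9 and 2232 FPKM in MiaPaCa2, and initiation factor EIF1 rose by 0.47 and 0.37. Of 47 tested translation factors, however, 15 rose and 23 fell, with 4 higher and 8 lower in both lines. The 4 became 8 without MiaPaCa2 wild-type library 1 or knockout library 2. Ribosome biogenesis factors fell in 40 of 62 cases and rose in 3, with 8 lower and 1 higher in both lines. The mitochondrial ribosomal proteins fell in 29 and rose in 9 of 74 cases, with 10 lower and 3 higher in both. The 39.2% that fell and the 13.5% lower in both are near the 37.4% and 10.1% of all genes. These counts moved with the scaling. After median-ratio scaling 17 translation factors rose and 13 fell, the reverse order, and 25 biogenesis factors fell. Corrected for GC content and length, 19 translation factors rose against 16 that fell. The mitochondrial ribosomal proteins that fell numbered 48 after rescaling to equal sums and 21 after median-ratio scaling, where 4 were lower in both lines.

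A ribosomal RNA entry and several histone entries were among the strongest shared higher genes. RNR2 measured 1713 to 1812 FPKM in wild-type and 2837 to 3383 FPKM in knockout Panc1, and 3288 to 3657 against 5495 to 5968 FPKM in MiaPaCa2. The symbol is used both for a mitochondrial ribosomal RNA and for a nuclear gene cluster, the files do not say which is meant, and no position is given here. Together RNR1 and RNR2 held 0.549 to 0.581% of the summed FPKM in wild-type and 0.863 to 1.04% in knockout Panc1, and 0.980 to 1.04% against 1.57 to 1.70% in MiaPaCa2. How ribosomal RNA was removed before sequencing is not stated, RNR1 overlapped between the MiaPaCa2 groups, and the part of these shares in other results was not tested.

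HIST1H1C, a linker histone, measured 15.2 to 18.5 FPKM in wild-type and 34.1 to 44.8 FPKM in knockout Panc1. The values in MiaPaCa2 were 32.4 to 36.6 FPKM in wild-type and 111, 61.1 and 106 FPKM in knockout libraries, with library 2 the lowest. The core histone HIST2H2BE rose from between 2.96 and 3.24 to between 6.12 and 6.83 FPKM in Panc1 and from between 2.71 and 3.37 to between 7.41 and 8 FPKM in MiaPaCa2. Of 20 tested genes with a HIST symbol, a group formed after the values were seen, 15 rose and none fell on average, with 9 higher in both lines and a median of 0.49. Under the other scalings and corrections 14 to 16 rose. Most replication-dependent histone messages end without a poly(A) tail, histone genes are near-identical copies of each other, and neither the capture of RNA nor the counting of shared reads is stated, so these values are uncertain.

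Smaller groups of higher genes concerned inflammation, degradation and oxygen. Of 16 tested genes on the list of NF-kB factors, chemokines and cytokines, 11 rose and 2 fell, and 7 (43.8%) were higher in both lines. NFKB2, the precursor of the noncanonical NF-kB subunit p52, measured 16.2 to 16.9 FPKM in wild-type and 25.7 to 26.8 FPKM in knockout Panc1, and 8.17 to 10.1 against 14.02 to 15.7 FPKM in MiaPaCa2. Its partner RELB rose by 0.55 and 0.65, and the receptor adaptor TRAF1 by 0.44 and 0.74. For these 3 genes the MiaPaCa2 change was the larger in value, and the difference passed for TRAF1 alone (-0.30, adjusted p = 0.045 by limma). The genes that fell, named after their values were seen, were REL and CXCL1, neither of which was separated in both lines.

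Of 48 lysosome and autophagy genes, 25 rose and 7 fell, with 10 (20.8%) higher and 1 lower in both lines. MAP1LC3A, a protein of the autophagosome membrane, rose from between 6.15 and 7.78 to between 16.3 and 20.6 FPKM in Panc1 and from between 9.82 and 14.9 to between 18.6 and 20.4 FPKM in MiaPaCa2. The protease CTSH rose by 0.36 and 1.03, and PSAP, the precursor of the saposins that help break down sphingolipids, by 0.36 and 0.69. ULK1, the kinase that starts autophagy, rose by 1.16 and 0.23, and the glucuronidase GUSB was the 1 gene lower in both; both were named after their values were seen.

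Of 17 hypoxia targets, 10 rose (58.8%) and 2 fell (11.8%), beside 19.5% and 37.4% of all genes. In both lines 5 (29.4%) were higher and 1 (5.88%) lower, beside 6.63% and 10.1%. MXI1, an antagonist of MYC, rose from between 0.979 and 1.15 to between 3.01 and 3.85 FPKM in Panc1 and from between 1.84 and 2.05 to between 3.34 and 4.59 FPKM in MiaPaCa2. The vasodilator peptide gene ADM rose by 0.55 and 0.92, and the oxygen-sensing hydroxylase EGLN1, itself a hypoxia target and named after its values were seen, was the 1 gene lower in both. DDIT4 counts on this list too. Of 16 targets of YAP and TAZ, the transcription coactivators that respond to cell shape, 7 rose and 4 fell, and 5 were higher in both lines. The matrix protein gene CCN1, the best known of these targets, rose from between 102 and 114 to between 176 and 222 FPKM in Panc1 and from between 9.43 and 10.3 to between 16.6 and 23.4 FPKM in MiaPaCa2, and the kinase LATS2 rose by 0.65 and 0.49. GADD45A was again among them, so that these short lists overlap.

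Outside the lists, CD82 had the third largest increase that both lines reached among genes whose higher group averaged 5 FPKM or more in each line. It encodes a tetraspanin known to restrain metastasis. It measured 14.4, 13.7 and 15.4 FPKM in wild-type and 33.2, 30.01 and 30.5 FPKM in knockout Panc1. MiaPaCa2 libraries held 6.90, 6.84 and 6.23 FPKM in wild-type and 21.97, 19.2 and 25.04 FPKM in knockout libraries. The MiaPaCa2 change of 1.58 exceeded the Panc1 change of 1.06 (difference -0.52, adjusted p = 0.00185 by limma).

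Other genes had a large average that came mostly from a single line. FHL1, a LIM-domain protein, had the largest average of all shared genes at 2.28, from between 2.90 and 3.88 to between 55.3 and 58.4 FPKM in Panc1 but from between 1.49 and 1.90 to between 3.32 and 4.29 FPKM in MiaPaCa2. The secreted bridge protein MFGE8 rose by 1.98 and 0.53, the desaturase SCD5 by 2.26 and 0.41, the arginine synthesis enzyme ASS1 by 1.80 and 0.34, and the imprinted noncoding RNA H19 by 1.57 and 0.55. POPDC3, a membrane protein of the Popeye family, was the reverse, with 14.96 to 16.2 FPKM in wild-type and 16.7 to 19.3 FPKM in knockout Panc1 and 3.33 to 4.38 against 16.1 to 20.1 FPKM in MiaPaCa2. Separation in both lines is thus compatible with effects of very different size.

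Among the lower genes, those of DNA replication fell together. Before a cell divides it loads helicases at origins, makes deoxynucleotides and copies its DNA, and in growing cells these genes are switched on as a set by E2F factors. Of 59 tested genes, 47 fell and 1, GINS4, rose on average, and 27 (45.8%) were lower in both lines while none was higher in both. The median was -0.30 (-0.36 in Panc1 and -0.23 in MiaPaCa2), against -0.06 over all genes. GINS4, named after its values were seen, in fact moved in opposite directions.

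RRM2, the regulated subunit of ribonucleotide reductase, which makes deoxynucleotides, lies at chr2:10260825-10351851 on the plus strand (GRCh37). It measured 89.7, 91.1 and 93.3 FPKM in wild-type and 41.9, 39.8 and 41.97 FPKM in knockout Panc1. In MiaPaCa2 it measured 115, 126 and 131 FPKM in wild-type and 69.05, 51.2 and 73.6 FPKM in knockout libraries. The groups were far apart, and MiaPaCa2 knockout library 2 was the lowest. The average change was -1.04 (SE 0.07, adjusted p = 2.1e-07 by limma), with -1.13 and -0.94 in the lines. The origin recognition gene ORC1 fell from between 9.25 and 10.4 to between 5.01 and 6.14 FPKM in Panc1 and from between 11.3 and 14 to between 6.77 and 10.1 FPKM in MiaPaCa2. POLE2, a subunit of the leading-strand polymerase, fell from between 8.38 and 9.42 to between 6.01 and 7.20 FPKM in Panc1 and from between 11.6 and 12.8 to between 8.06 and 9.27 FPKM in MiaPaCa2.

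FAM111B, a protease gene linked to replication, fell by 1.31 in Panc1 and 0.69 in MiaPaCa2, and SMC6, a subunit of the complex that holds damaged DNA, by 1.16 and 0.67. In MiaPaCa2, knockout library 2 was the lowest of its group for 24 of the 27 shared replication genes and wild-type library 1 the lowest of its group for 21. The same pair of libraries stood out for the ATF4 genes. Without knockout library 2 27 list genes were lower in both lines and 48 fell on average. Leaving out a library cannot undo a separation, so the unchanged 27 is no check on the part of this library.

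Promoters of 2 of these genes are shown because they hold the classical E2F word. Capitals mark TTTGGCGC or TTTCGCGC on either strand in the RefSeq promoters (GRCh38.p14, same window), written 5′ to 3′ on the gene's strand. POLE2 spans chr14:49688165-49688464 (minus strand) and POLA2, the accessory subunit of the priming polymerase, spans chr11:65261712-65262011 (plus strand).
POLE2: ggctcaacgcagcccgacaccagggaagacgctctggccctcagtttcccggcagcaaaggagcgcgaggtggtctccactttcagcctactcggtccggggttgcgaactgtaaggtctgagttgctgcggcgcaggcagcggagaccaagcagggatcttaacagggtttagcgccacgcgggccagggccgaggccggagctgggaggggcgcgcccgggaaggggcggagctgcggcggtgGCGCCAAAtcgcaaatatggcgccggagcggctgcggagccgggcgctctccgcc
POLA2: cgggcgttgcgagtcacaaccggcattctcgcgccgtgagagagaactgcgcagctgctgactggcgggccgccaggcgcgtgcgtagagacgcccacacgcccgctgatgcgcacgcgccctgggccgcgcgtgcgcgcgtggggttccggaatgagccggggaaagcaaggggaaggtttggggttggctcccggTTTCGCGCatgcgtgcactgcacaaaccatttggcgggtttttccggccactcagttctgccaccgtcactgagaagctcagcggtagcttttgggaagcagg
The word begins at position -5 in POLE2 and -53 in POLA2. It was found in 12 of the 37 replication genes with a single entry (32.4%), 31 of 690 shared lower genes (4.49%), 5 of 376 shared higher genes (1.33%), 154 of 6307 tested genes (2.44%) and 250 of all 22114 promoters kept (1.13%). POLA2, named for this sequence after its values were seen, measured 25.8 to 27.3 FPKM in wild-type and 19.6 to 20.98 FPKM in knockout Panc1, and 15.6 to 18.1 against 11.6 to 15.03 FPKM in MiaPaCa2.

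Mitotic genes fell almost without exception. The list covers the kinetochore, spindle checkpoint, mitotic kinesins and condensin, the machinery that attaches, moves and compacts chromosomes in division. Of 63 tested genes, 60 fell and none rose on average by limma, and 32 (50.8%) were lower in both lines. The genes that did not pass were AURKB, BIRC5 and NCAPD2, with average changes of -0.04, -0.10 and -0.03. The median was -0.42 (-0.59 in Panc1 and -0.20 in MiaPaCa2), against -0.06 over all genes.

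KIF4A, a kinesin that works on chromosome arms and the spindle midzone, had nearly the same levels in both lines (chrX:69509954-69640736, plus strand, GRCh37). It measured 27.2, 27.6 and 26.4 FPKM in wild-type and 16.9, 17.3 and 16.99 FPKM in knockout Panc1. MiaPaCa2 gave 26.9, 28.95 and 29.1 FPKM in wild-type and 17.5, 16.4 and 17.5 FPKM in knockout libraries. The spread within groups was small beside the gap between them, and the average change was -0.66 (SE 0.03, adjusted p = 1.4e-08 by limma). The checkpoint kinase BUB1 fell from between 42.1 and 42.7 to between 28.3 and 31.2 FPKM in Panc1 and from between 48.2 and 52.9 to between 34.6 and 36.5 FPKM in MiaPaCa2. The difference between its changes in the lines was 0.00. The kinesin KIF20B fell by 1.04 and 0.54 with wide spread, and 1 wild-type MiaPaCa2 library at 9.08 FPKM lay just above a knockout library at 8.91 FPKM. The proliferation marker MKI67, which is on the list and was named after its values were seen, measured 56.5 to 71.9 FPKM in wild-type and 44.02 to 45.6 FPKM in knockout Panc1, and 56.4 to 62.5 against 40.6 to 50.1 FPKM in MiaPaCa2. In bulk RNA, fewer dividing cells and less of these messages per dividing cell cannot be told apart.

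Mitotic promoters are known for a short element read by the DREAM and MuvB complexes, and 2 shared lower genes are shown for it. Capitals mark TTTGAA or its reverse complement TTCAAA (RefSeq, GRCh38.p14, same window). KIF4A spans chrX:70289854-70290153 (plus strand) and DLGAP5, a spindle protein, spans chr14:55191536-55191835 (minus strand).
KIF4A: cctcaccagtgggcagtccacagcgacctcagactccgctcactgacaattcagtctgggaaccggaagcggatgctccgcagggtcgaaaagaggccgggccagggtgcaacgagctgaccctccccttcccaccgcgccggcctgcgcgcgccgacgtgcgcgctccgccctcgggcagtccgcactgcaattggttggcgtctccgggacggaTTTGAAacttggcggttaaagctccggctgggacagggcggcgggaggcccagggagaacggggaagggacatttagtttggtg
DLGAP5: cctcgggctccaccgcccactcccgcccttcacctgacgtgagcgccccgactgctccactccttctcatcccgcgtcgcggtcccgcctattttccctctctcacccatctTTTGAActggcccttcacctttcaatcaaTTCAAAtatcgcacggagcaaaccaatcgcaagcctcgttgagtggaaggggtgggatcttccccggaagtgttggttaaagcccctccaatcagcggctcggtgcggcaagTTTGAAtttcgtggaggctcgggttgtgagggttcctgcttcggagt
The word begins at position -34 in KIF4A, and DLGAP5 holds it 3 times, first at -138. It was found in 32 of the 43 mitotic genes with a single entry (74.4%), 96 of 690 shared lower genes (13.9%), 11 of 376 shared higher genes (2.93%) and 571 of 6307 tested genes (9.05%). Being only 6 letters long, it also occurs in 3542 of all 22114 promoters kept (16%). The median GC content was 61.7% for the mitotic promoters and 66.0% for those of all tested genes, and the word is rich in A and T. DLGAP5, named for its sequence after its values were seen, fell from between 22.6 and 26.4 to between 13.5 and 14.9 FPKM in Panc1 and from between 24.2 and 27.6 to between 16.6 and 23.3 FPKM in MiaPaCa2.

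Genes of DNA repair, splicing and protein breakdown were also lower. Of 32 genes of homologous recombination and the Fanconi pathway, 28 fell and none rose on average, although no more than 7 (21.9%) were lower in both lines, and 11 were without MiaPaCa2 wild-type library 2 or knockout library 1. Among the 7 were the helicase RECQL4, the nuclease EXO1 and FANCA, a core protein of crosslink repair. FANCA measured 10.2 to 11.7 FPKM in wild-type and 8.25 to 8.85 FPKM in knockout Panc1, and 29.5 to 33.1 against 21.8 to 26.3 FPKM in MiaPaCa2. Of 37 splicing regulators, 29 fell and none rose, and 15 (40.5%) were lower in both lines. HNRNPR, an RNA-binding protein of the spliceosome, fell from between 29.7 and 33.2 to between 19.3 and 21.7 FPKM in Panc1 and from between 24.3 and 24.5 to between 18.02 and 18.95 FPKM in MiaPaCa2. The SR protein genes SRSF5 and SRSF2, whose products bind exonic enhancers, fell by 0.60 and 0.27 and by 0.41 and 0.35. After the correction for GC content and length 21 splicing regulators fell and 4 rose, with 8 lower and 1 higher in both lines, so the size of this group changed with composition.

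Of 38 proteasome subunits, 23 fell and 2 rose, with 9 (23.7%) lower in both lines. The core subunit PSMA3 fell from between 42.00 and 44.3 to between 29.9 and 33.7 FPKM in Panc1 and from between 84.5 and 91.3 to between 64.03 and 74.1 FPKM in MiaPaCa2, and the ATPase subunits PSMC2 and PSMC6 by 0.72 and 0.25 and by 0.54 and 0.34. The subunits that rose, PSMA6 and PSMB5, were named after their values were seen and changed by no more than 0.12 on average, and PSMA6 lost its call under 13 of 24 alternatives and PSMB5 under 1. With the correction for GC content and length 14 fell and 5 rose, and 5 were lower in both lines.

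**Figure D3:**
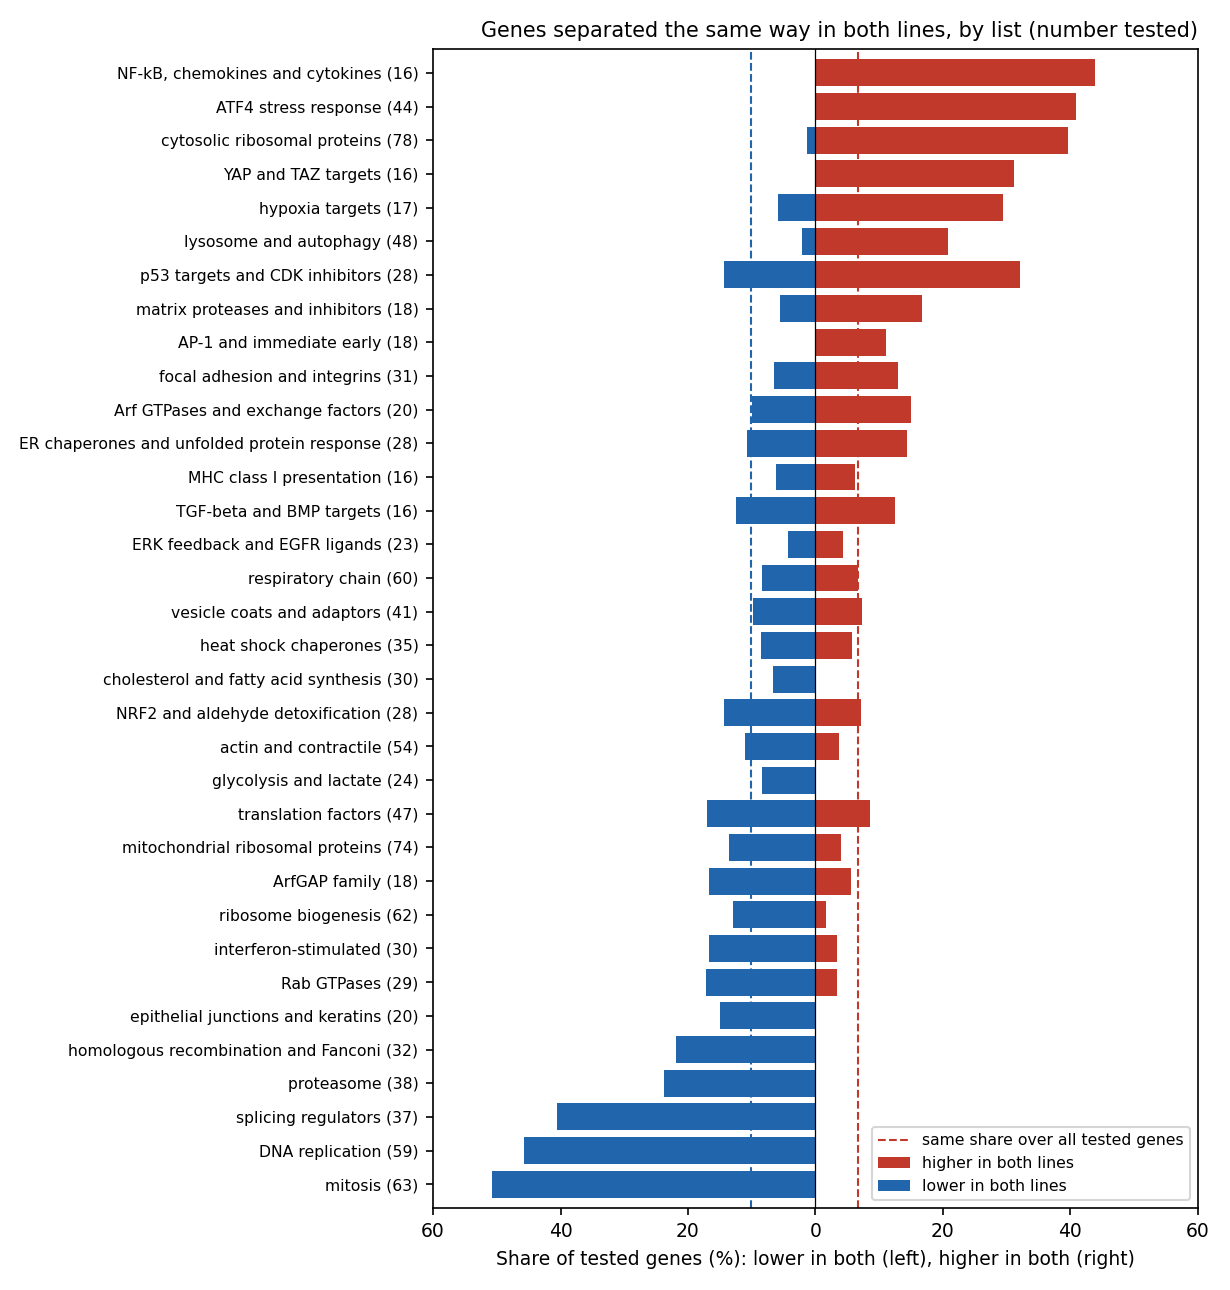
Share of each list's tested genes (number in brackets) that were higher in both lines (red, right) or lower in both lines (blue, left), for lists with at least 16 tested genes; dashed lines give the same shares over all tested genes, 6.63% and 10.1%. Mitosis (50.8%), DNA replication (45.8%) and splicing regulators (40.5%) lead on the lower side, and the NF-kB (43.8%), ATF4 (40.9%) and ribosomal protein (39.7%) lists on the higher side.

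The shared lower genes were unevenly spread over the genome. On chromosome 2, where ASAP2 lies, 184 of 679 tested genes (27.1%) were lower and 15 (2.21%) higher in both lines. In the first 25 Mb of the chromosome, the end that holds ASAP2, 41 of 54 genes (75.9%) were lower in both and none was higher, with a median average change of -0.51 (-0.72 in Panc1 and -0.31 in MiaPaCa2). Between 25 and 85 Mb the count was 71 of 212 (33.5%), with medians of -0.03 and -0.37, and beyond 85 Mb it was 72 of 413 (17.4%). The next largest shares of lower genes were 15.9% on chromosome X, 15.6% on chromosome 14 and 14.9% on chromosome 1. For higher genes the largest shares were 12.4% on chromosome 20, 11.9% on chromosome 6 and 11.7% on chromosome 17. DNA copy number was not measured here, and its part in these values was not tested.

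**Figure D4:**
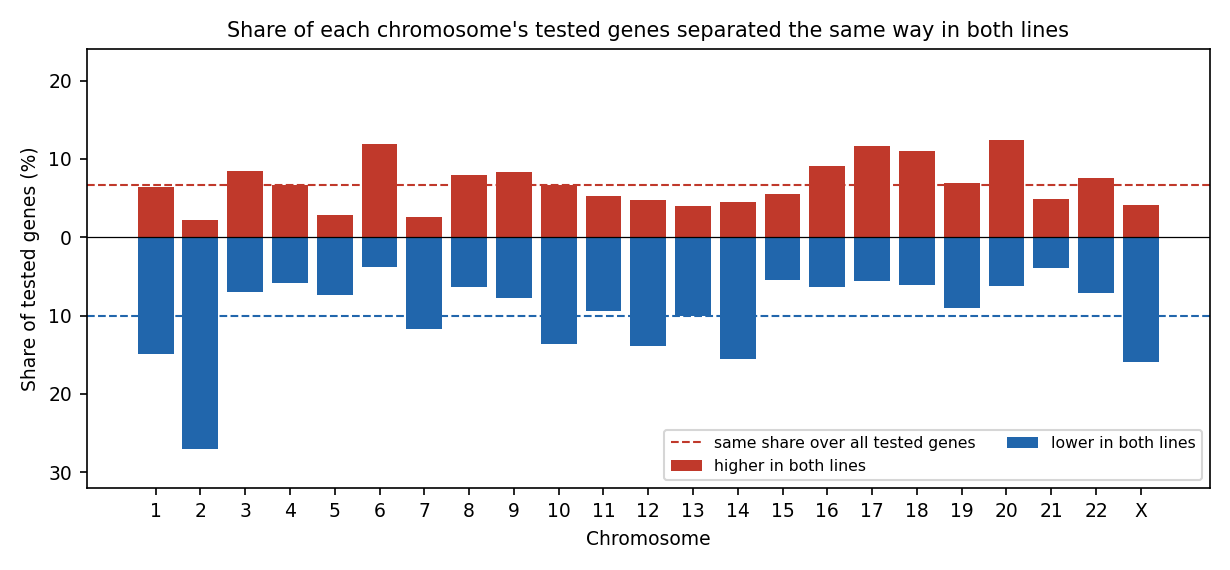
Share of the tested genes on each chromosome that were higher (red, above 0) or lower (blue, below 0) in both knockout lines, with dashed lines at the shares over all tested genes. Chromosome 2 stands out on the lower side with 27.1%.

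HPCAL1, a calcium sensor gene near ASAP2, was lower in both lines, as were most tested genes of this chromosome end. It measured 139, 139 and 144 FPKM in wild-type and 83.8, 85.8 and 79.9 FPKM in knockout Panc1. The values in MiaPaCa2 were 142, 139.6 and 136 FPKM in wild-type and 80.8, 85.7 and 83.5 FPKM in knockout libraries. The change was -0.75 in Panc1 and -0.73 in MiaPaCa2, with groups of almost identical level in both lines. It was thus more even than the medians of this end, -0.72 and -0.31. Of the 14 shared genes with the largest decrease that both lines reached, 6 were on chromosome 2: RRM2, SFXN5, HPCAL1, TRAPPC12, SMC6 and CEBPZ. So were TRIB2, a pseudokinase related to TRIB3, which fell by 2.13 in Panc1 and 0.49 in MiaPaCa2, ADI1, an enzyme of methionine salvage, which fell by 1.18 and 0.41, and the differentiation inhibitor ID2, which changed by -0.79 and -0.94. Most members of the mitotic and replication groups lie elsewhere: outside the first 90 Mb of chromosome 2, 31 mitotic and 26 replication genes were lower in both lines.

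The largest decrease that both lines reached was that of KRT19, a keratin of ductal epithelium (chr17:39679869-39684560, minus strand, GRCh37). It measured 541, 539 and 543 FPKM in wild-type and 229, 258 and 276 FPKM in knockout Panc1. MiaPaCa2 libraries held 102, 109 and 105 FPKM in wild-type and 31.8, 39.2 and 34.04 FPKM in knockout libraries. The groups were far apart in both lines, with changes of -1.09 and -1.57 (average -1.33, SE 0.05, adjusted p = 2.7e-09 by limma). Of 20 tested junction and keratin genes, 5 rose and 7 fell. The genes lower in both lines were KRT19 and the desmosome genes PKP3 (-0.32 and -0.81) and DSC2 (-0.49 and -0.33).

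FABP5, a fatty acid carrier with several near-identical pseudogenes, fell from between 38.9 and 41.6 to between 23.98 and 24.8 FPKM in Panc1 and from between 9.99 and 13.3 to between 1.94 and 2.67 FPKM in MiaPaCa2. The restriction factor IFITM2 fell from between 47.2 and 59.4 to between 33.02 and 35.3 FPKM in Panc1 and from between 39.8 and 48.6 to between 16.95 and 17.7 FPKM in MiaPaCa2, and it shares sequence with its neighbours IFITM1 and IFITM3. ZC3HAV1, an antiviral RNA-binding protein, changed by -0.67 and -0.83. Even so the interferon-stimulated list was divided: 21 of 30 genes fell and 4 rose on average, but 5 were lower and 1 was higher in both lines while 9 were opposite, with medians of 0.12 in Panc1 and -0.45 in MiaPaCa2. OAS3, which makes the messenger that activates RNase L, was lower in both, by 0.47 and 1.33 on the log2 scale.

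Several other decreases concerned membrane and signalling genes. The Rab5 exchange factor RIN1 fell from between 35.4 and 39.4 to between 16.9 and 18.97 FPKM in Panc1 and from between 21.1 and 28.2 to between 14.4 and 16.7 FPKM in MiaPaCa2. SAPCD2, a regulator of spindle orientation, fell by 0.89 and 0.83. The gap junction gene GJB2 fell by 1.10 and 0.54, the Rab effector gene MICALL2 by 1.13 and 0.48, TM4SF18, a membrane protein of the tetraspan type, by 1.36 and 0.34, and the adipocyte-linked gene ADIRF by 1.44 and 0.54. The last 4 had a larger change in Panc1 than in MiaPaCa2 by the test of the difference.

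Of 18 tested ArfGAP genes, the family of ASAP2, 4 rose and 9 fell. The 18 and the 9 include ASAP2 itself, whose average change was -0.74 (adjusted p = 1.9e-07 by limma). Without the first 90 Mb of chromosome 2, where ASAP2 lies, 17 were tested, of which 4 rose and 8 fell. Of the 18, 3 (16.7%) were lower and 1 (5.56%) was higher in both lines, beside 10.1% and 6.63% of all genes. ACAP3 measured 11.8 to 12.8 FPKM in wild-type and 7.46 to 8.16 FPKM in knockout Panc1, and 7.88 to 10.5 against 5.37 to 6.11 FPKM in MiaPaCa2. ASAP1, the closest relative, fell by 0.16 and 0.26, and GIT2, a scaffold at focal adhesions, by 0.32 and 0.11. ARFGAP1, which acts on Golgi coats, was the 1 gene higher in both, at 0.08 and 0.17, and was named after its values were seen. By limma its Panc1 change (adjusted p = 0.134) and the MiaPaCa2 change of GIT2 (adjusted p = 0.0691) did not pass. After rescaling to equal sums 0 ArfGAP genes were higher in both lines. Of 20 Arf GTPases and exchange factors 8 rose and 7 fell (2 after median-ratio scaling), with 3 higher and 2 lower in both. Of 29 tested Rab GTPases, which steer vesicles, 5 rose (17.2%) and 12 fell (41.4%), beside 19.5% and 37.4% of all genes. In both lines 1 (3.45%) was higher and 5 (17.2%) were lower, beside 6.63% and 10.1%. After median-ratio scaling 2 were lower in both. RAB10 and RAB1A, which lie on chromosome 2, changed by -0.41 and -0.43 and by -0.25 and -0.65. RAB8B, the 1 gene higher in both, changed by 0.31 and 0.32.

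Other groups held many genes that moved in opposite directions, as 16.4% of all genes did. Of 31 focal adhesion and integrin genes, 16 rose (51.6%, beside 19.5% of all genes) and 5 fell on average. In this list 4 (12.9%) were higher and 2 lower in both lines and 11 were opposite, with medians of 0.28 in Panc1 and -0.08 in MiaPaCa2. Of 54 actin and contractile genes, 2 were higher, 6 lower and 19 opposite, and of 24 genes of glycolysis and lactate none was higher, 2 were lower and 12 were opposite. The opposite genes with the largest smaller change show how an average can hide an effect. CSF1, the macrophage growth factor, measured 40.4, 39.1 and 38.1 FPKM in wild-type and 17.4, 17.2 and 17.01 FPKM in knockout Panc1. In MiaPaCa2 it measured 17.5, 12.2 and 12.1 FPKM in wild-type and 27.2, 35.7 and 28.5 FPKM in knockout libraries. Its average change was -0.03 although the groups were fully separated in each line. HES4, IFI6, SEMA6B, CITED4 and LOC100507412 were the reverse, higher in knockout Panc1 and lower in knockout MiaPaCa2.

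Shared higher and lower genes differed in base composition. The median GC content of the longest transcript was 52.0% for genes higher in both lines, 45.6% for those lower in both, 48.9% for opposite genes and 48.4% for all tested genes, over the 95.5% of tested genes with an annotation. The median transcript length was 3724, 3722, 4076 and 3689 bases, and the median level 11.3, 16.3, 12 and 10.8 FPKM. With the correction for GC content and length, 621 of 718 higher and 763 of 1111 lower genes were still shared. Counts with this correction are given above for the p53, ribosomal protein, translation factor, histone, splicing and proteasome groups. They are not given for the ATF4, DNA replication and mitotic groups.

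The rule has a sharp edge. Just inside it, ARHGAP21, a GTPase-activating protein at the Golgi, had a highest knockout value and a lowest wild-type value that both read 23.89 FPKM in MiaPaCa2, and TALDO1 and TIMM17A were separated by as little. Just outside it, the nexin SNX24 had the same value of 5.807 FPKM in 1 wild-type and 1 knockout MiaPaCa2 library, and MT1X and TMOD3 missed by as little. Genes on either side of this edge have like values, so membership of the weakest genes is decided by single libraries.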

How the data were processed

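Total RNA of the 12 libraries was extracted with ISOGEN II and sequenced on a BGISEQ-500, per the labels' protocols. Per the labels' protocols, the authors trimmed adaptors, dropped reads of low quality or complexity, aligned to hg19 with UCSC annotation by TopHat2 2.0.14, and deposited FPKM values made with STAR 2.5.2a. The values are not counts, so depth and counting error are unknown, and no count test was run.

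Values were used as log2(FPKM + 1), for genes with a mean of 1 FPKM or more in each line. One linear model with a mean per group was fitted across all genes in limma 3.58.1 (R 4.3.3; variance trend, 8 residual degrees of freedom), tested on simulated data first. The average, the change in each line and the difference between lines were contrasts of it, two-sided, with Benjamini-Hochberg adjustment over 11163 genes and a threshold of 0.05; differences and errors are on this log2 scale, which understates changes of low genes. "Rose" and "fell" refer to the average contrast.

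The members and the 41 gene lists were chosen with earlier results of these data known. Genes were named by rule: ASAP2; among shared genes whose higher group averaged 5 FPKM or more in both lines, the 14 higher and 14 lower with the largest change that both lines reached, and 6 more each way by average; up to 3 per list; 6 opposite genes; and 3 on each side of the rule's edge. Others are marked in the text as named after their values were seen, apart from cell type markers. Some items are not reported here. Positions are from GENCODE 44 on GRCh37, matched for 10662 genes. The 24 alternatives covered pseudocount, filters, scalings, model terms, a correction for GC content and length, chromosome 2, and leaving out each library.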

Additional observations from a re-analysis of the deposited data

Results flagged for a closer look

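Each value here is the Panc1 change minus the MiaPaCa2 change on the log2(FPKM + 1) scale, for genes named in the text whose difference between the lines passed at an adjusted p under 0.05 by limma, as it did for 58.4% of all tested genes. The groups below give these values without an explanation.

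Among genes higher in both lines, the Panc1 change was the larger for CHAC1 (1.67), CEBPB (0.46), TRIB3 (0.98), CDKN1A (0.59), SESN2 (1.24), SCD5 (1.85), MFGE8 (1.45), ASS1 (1.46), H19 (1.01), FHL1 (2.88), FBLN1 (0.50), COL6A2 (0.73), TIMP2 (0.67), RPSA (0.28), RPL9 (0.36), RPLP1 (0.25), EEF1A1 (0.17), MXI1 (0.38), MAP1LC3A (0.59), ATF4 (0.66), ASNS (1.15), AARS (0.88) and ULK1 (0.93). The MiaPaCa2 change was the larger for CD82 (-0.52), BTG1 (-0.49), POPDC3 (-1.84), PHLDA3 (-1.27), TRAF1 (-0.30), CTSH (-0.66) and PSAP (-0.33). FHL1 had the widest gap of the named shared genes.

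Among genes lower in both lines, the Panc1 decrease was the larger for FAM111B (-0.63), RIN1 (-0.37), TRIB2 (-1.64), ADIRF (-0.90), TM4SF18 (-1.02), GJB2 (-0.56), MICALL2 (-0.65), ADI1 (-0.76), GIT2 (-0.21), TIMP1 (-0.40), RECQL4 (-0.34), EXO1 (-0.39), CRELD2 (-0.17), EBP (-0.36), PSMC2 (-0.47), HNRNPR (-0.25), SRSF5 (-0.33), CDKN2D (-0.24), RPS7 (-0.43) and DLGAP5 (-0.38). The MiaPaCa2 decrease was the larger for KRT19 (0.48), FABP5 (1.28), IFITM2 (0.65), RAB1A (0.39), PKP3 (0.49), OAS3 (0.86) and CD68 (0.40).

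Among genes separated in opposite directions, the differences were CSF1 (-2.23), HES4 (2.21), IFI6 (2.41), LOC100507412 (3.12), SEMA6B (2.32), CITED4 (1.66), WARS (1.51), RPS27A (0.58), GINS4 (-1.30) and AURKB (0.41). Of genes not separated in both lines, the difference passed for ASAP2 (-1.23), ATF5 (-0.40), RNR1 (0.47), NCAPD2 (0.14), CXCL1 (-1.04), PSMA6 (0.21) and PSMB5 (0.22).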

How the results depend on the processing

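The average test called 2178 genes higher and 4177 lower. Without the filter on low values 3382 were higher. With a single knockout term for both lines, whose error includes the difference between lines, 1348 were higher and 2406 lower. Of the shared genes, 724 of the 740 and 1109 of the 1129 were called. These genes were chosen for moving the same way in the same libraries, so that is no further evidence. With a filter of 5 FPKM, which leaves fewer genes, 473 instead of 740 were higher in both lines. Leaving out 1 library at a time gave 1975 to 2296 higher and 3806 to 4219 lower calls, and 776 to 975 higher, 1150 to 1410 lower and 1892 to 2369 opposite genes separated in both lines, where fewer libraries make separation easier. With the replicate block, 2066 were called higher and 3996 lower. Deviations from the group mean of same-numbered libraries correlated at 0.0744, 0.0424 and 0.1233 in Panc1 and -0.1392, -0.1762 and -5e-04 in MiaPaCa2. The numbers were therefore not taken to pair the libraries. In MiaPaCa2, wild-type 1 with knockout 2 gave 0.2823, wild-type 2 with knockout 3 gave 0.1922 and wild-type 3 with knockout 1 gave 0.1486. The remaining MiaPaCa2 pairs were at -0.2167, 0.012 and -0.0985. The main fit does not model such pairs, and whether these libraries were handled together was not tested. Of the 740 and 1129 shared genes, median-ratio scaling kept 720 and 774, equal sums 590 and 1072, and quantile normalization 645 and 729. NCAPD2 was at 0.04 instead of -0.03 after median-ratio scaling; the cause was not tested. PSMA6 lost its call under 13 alternatives, and BIRC5 gained one under 8. With no counts, the depth behind low values is unknown.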

Other observations

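Genes of the extracellular matrix, which anchors cells and holds growth factors, were mostly higher among those that both lines expressed. Of 12 tested matrix proteins, 7 rose (58.3%) and 2 fell (16.7%) on average, beside 19.5% and 37.4% of all genes. In both lines 3 were higher and 1 was lower. The collagen subunit gene COL6A2 measured 3.98 to 4.63 FPKM in wild-type and 9.36 to 10.7 FPKM in knockout Panc1, and 18.8 to 22.6 against 24.6 to 26.6 FPKM in MiaPaCa2. FBLN1, a protein of elastic fibres, rose by 0.92 in Panc1 and 0.42 in MiaPaCa2, while the membrane collagen gene COL13A1 fell by 0.44 and 0.50. The inhibitors of matrix proteases parted: TIMP2 rose by 1.19 and 0.52, and TIMP1 fell by 0.68 and 0.28. TGFBI, a matrix protein induced by TGF-beta, rose by 0.56 and 0.86.

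The unfolded protein response of the endoplasmic reticulum, which shares stimuli with the ATF4 response, had no common direction. Of 28 tested genes, 5 rose (17.9%) and 8 fell (28.6%), beside 19.5% and 37.4% of all genes. In both lines 4 (14.3%) were higher and 3 (10.7%) lower, beside 6.63% and 10.1%, and 10 were opposite. HERPUD1, which helps remove misfolded proteins, rose by 0.82 in Panc1 and 0.62 in MiaPaCa2, and the chaperone cofactors SDF2L1 and CRELD2 fell by 0.36 and 0.42 and by 0.50 and 0.33. Of 30 tested genes of cholesterol and fatty acid synthesis, 11 rose (36.7%) and 4 fell (13.3%), yet none was higher in both lines. EBP, a sterol isomerase, fell by 0.74 and 0.37. Without MiaPaCa2 wild-type library 1, 9 were higher in both.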
